A study of Mus musculus with 12 samples.

Results

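Chemokines are small secreted proteins that draw leukocytes along a gradient, and their genes are described here in cultured mouse basophils. The set holds 9 ligand genes of the 31301 gene symbols in the count table: Ccl2, Ccl3, Ccl4, Ccl6, Ccl7, Ccl9, Ccl22, Cxcl2 and Cxcl10. They were taken by symbol, with no threshold on their values, from a list drawn up with earlier results of these data known, and all 9 were present in the table. Of these, 6 passed the filter on low counts and were tested (Ccl2, Ccl3, Ccl4, Ccl6, Ccl9 and Cxcl2), and Ccl7, Ccl22 and Cxcl10 are described by their counts.

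Each ligand acts through G protein-coupled receptors on the responding cell. CCL6 and CCL9 are mouse ligands of CCR1, which also binds CCL3, and CCL4 is a close relative of CCL3. CCL2 and CCL7 attract CCR2-bearing monocytes, CCL22 attracts CCR4-bearing T cells, CXCL2 attracts neutrophils through CXCR2, and CXCL10 is an interferon-induced ligand of CXCR3. Basophils are rare granulocytes that release such ligands together with IL-4, IL-6 and histamine.

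Marrow of wild-type C57BL/6J mice was cultured for 7 days, with either IL-3 at 0.3 ng/mL or thymic stromal lymphopoietin (TSLP) at 1 µg/mL, to give bone marrow-derived basophils (BMBAs). From both kinds of culture, sorting on the IgE receptor chain FcεRIα and the integrin CD49b yielded an immature population (FcεRIαhi CD49blo, the pre-basophils of the study) and a mature one (FcεRIαlo CD49bhi). Each of the 4 combinations of cytokine and stage had 3 libraries, from separate cultures. These are basophils of the culture dish, not cells taken from tissue. The comparisons ask how the ligands differed between the stages of each culture and between the cytokines at each stage, and all of them draw on the same 12 libraries.

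Library totals ran from 1720065 to 3685285 counts. The basophil genes Mcpt8, Prss34 and Fcer1a were high in every library, and the sum of 11 basophil markers lay at 41730.5 to 45123.9 CPM (library-scaled counts) in the IL-3 immature group and at 29002.7 to 32176.6 in the TSLP immature group. It was 11594.4 to 14656.3 CPM with IL-3 and 8980 to 12900 CPM with TSLP in mature cells. Its largest parts in IL-3 immature cells were Prss34 and Mcpt8, with means of 19650 and 16130 CPM, against 787.8 and 4990 CPM in IL-3 mature cells. Of the 11 markers, 4 were called higher and 6 lower in mature IL-3 cells, and 3 higher and 5 lower in mature TSLP cells. Over all tested genes, 24.1% were called higher and 22.1% lower with IL-3, and 12.9% higher and 12.2% lower with TSLP. TSLP mature 1 stood apart from its group. Its counts differed from those of TSLP mature 2 and 3 with a chi-square per degree of freedom of 46.2 and 58.4, against 2.18 to 14.7 for every other pair within a group. Results that rest on it are given with and without it.

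The 4 abundant ligand genes lie in one stretch of a chromosome, with E230016K23Rik and Rpl9-ps1 among them. On chromosome 11 of the GRCm38 assembly (GENCODE M21), Ccl9 (83572919 to 83578636, minus strand, 4 exons), Ccl6 (83587882 to 83593087, minus strand, 4 exons), Ccl3 (83647844 to 83649355, minus strand, 3 exons) and Ccl4 (83662584 to 83664683, plus strand, 3 exons) span 91.8 kb. Ccl2 (82035571 to 82037453) and Ccl7 (82045712 to 82047525) sit on the plus strand of the same chromosome, 1.53 Mb away. Ccl22 is on chromosome 8 (94745590 to 94751699, plus strand), and Cxcl2 (90903871 to 90905938, plus strand) and Cxcl10 (92346638 to 92348889, minus strand) are on chromosome 5. The coding sequences of Ccl3 and Ccl4 were 69.8% identical and those of Ccl6 and Ccl9 66.7%, the highest among all pairs of members. No stretch of 50 bases of the Ccl2, Ccl3, Ccl4, Ccl6, Ccl7, Ccl22 or Cxcl10 transcript occurred in a transcript of another gene. In Cxcl2, 3.37% of the stretches were shared with Cxcl3, and in Ccl9 2% were shared with transcripts of 250 other genes, so reads from those stretches cannot be assigned with certainty.

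RefSeq promoter windows (GRCm38.p6, 250 bases before to 50 after the start) were given for 6 of the 9 members. The last 120 bases before the start are shown for 3 ligand genes of the chromosome 11 stretch, whose transcripts rose with maturation in both cultures, and for Cxcl2, whose transcript rose with IL-3 and did not pass the test with TSLP. Capitals mark matches to the NF-kB consensus or to the AP-1 motif TGANTCA on either strand.
Ccl9, chr11:83578637-83578756, minus strand: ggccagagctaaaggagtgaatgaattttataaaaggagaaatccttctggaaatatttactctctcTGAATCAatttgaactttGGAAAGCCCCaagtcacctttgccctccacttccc
Ccl6, chr11:83593088-83593207, minus strand: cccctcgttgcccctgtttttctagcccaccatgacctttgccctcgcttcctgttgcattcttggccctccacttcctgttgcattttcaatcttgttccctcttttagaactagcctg
Ccl3, chr11:83649379-83649498, minus strand: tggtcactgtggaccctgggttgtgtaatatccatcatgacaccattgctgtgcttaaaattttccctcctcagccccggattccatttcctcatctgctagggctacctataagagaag
Cxcl2, chr5:90903779-90903898, plus strand: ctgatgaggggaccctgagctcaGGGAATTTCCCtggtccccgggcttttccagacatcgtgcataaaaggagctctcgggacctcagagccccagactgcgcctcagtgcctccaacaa

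The Cxcl2 run in capitals starts 97 bases before the start and holds overlapping matches of the NF-kB consensus on both strands. Ccl9 held an AP-1 match and an NF-kB match, and the Ccl6 and Ccl3 windows held neither. The NF-kB consensus was found in 3 of the 6 members' windows (Ccl9, Cxcl2 and Cxcl10) and in 4.51% of all 32851 promoter windows. TGANTCA was found in 2 of the 6 (Ccl9 and Cxcl10) and in 7.81% of all windows. The STAT motif TTCNNNGAA was found in 8.3% of all windows and in none of these 6. These matches describe the letters of the windows only.

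Together the 9 genes took 0.442% to 0.471% of all counts in IL-3 immature, 0.945% to 1.14% in TSLP immature, 2.23% to 2.87% in IL-3 mature and 1.94% to 3.38% in TSLP mature libraries. Ccl6, Ccl9, Ccl3 and Ccl4 made up 99.78% to 99.95% of these counts in every library. Ccl6 alone ranked 4 or 5 among all genes in the 6 mature libraries, 8 to 10 in TSLP immature and 14 to 21 in IL-3 immature libraries. The rank of Ccl4 ran from 60 to 126 in mature libraries and from 1057 to 1599 in IL-3 immature libraries. The share of Ccl6 among the member counts stayed between 53.5% and 60.7% in all 12 libraries.

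Per kilobase of transcript, Ccl6 was also the highest member, with 10802 ± 1358.9 CPM per kb in IL-3 mature cells (mean ± SD, n = 3). Ccl3 followed with 5091.7 ± 640, Ccl9 with 1785.7 ± 352 and Ccl4 with 1434 ± 47.7 CPM per kb. Cxcl2 had 18.38 ± 7.22 and Ccl2 1.438 ± 0.471 CPM per kb in the same cells. Ccl9 thus stood above Ccl3 in CPM and below it per kilobase, its transcript having 3006 bases against 766 for Ccl3. The length is that of the longest protein-coding transcript. Values per kilobase assume that counts grow with transcript length, which was not tested for these libraries, so this change of order rests on that assumption.

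**Figure D1:**
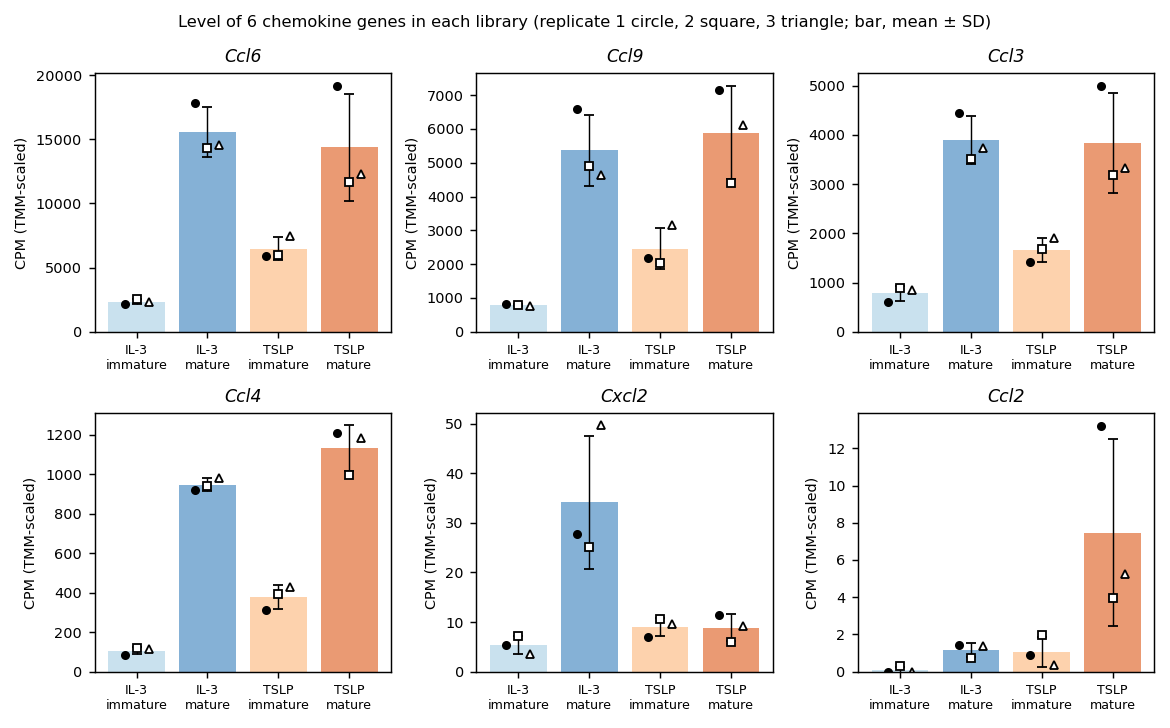
Level of 6 ligand genes (CPM after TMM scaling, vertical axis, each gene on its own scale from 0) in the 4 groups. Bars give the mean and error bars the SD of 3 libraries, and symbols mark replicates 1 to 3. Ccl6, Ccl9, Ccl3 and Ccl4 are lowest in IL-3 immature, intermediate in TSLP immature and high in both mature groups, Cxcl2 is high in IL-3 mature libraries, and Ccl2 is highest in TSLP mature libraries, with 13.22 CPM in replicate 1.

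Ccl6, Ccl9, Ccl3 and Ccl4 rose with maturation in the IL-3 culture. Ccl6 was measured at 2182.6, 2532.8 and 2286.5 CPM in the IL-3 immature libraries and at 17812.1, 14341 and 14511.4 CPM in the IL-3 mature libraries. The lowest mature library lay far above the highest immature one, and the log2 fold change was 2.74 ± 0.233 (SE, adjusted p = 1.2e-07), a 6.66-fold difference. Ccl9 was at 811.6, 805.3 and 754.2 CPM in immature and at 6580.9, 4891.8 and 4631.2 CPM in mature libraries (log2 fold change 2.76 ± 0.244, adjusted p = 1.7e-07).

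Ccl3, the gene of macrophage inflammatory protein 1α, was at 607.9, 883.3 and 845.3 CPM in IL-3 immature and at 4453.4, 3518.1 and 3729.2 CPM in IL-3 mature libraries. Its log2 fold change was 2.32 ± 0.232 (adjusted p = 6.67e-07). Ccl4, the gene of macrophage inflammatory protein 1β, was at 84.41, 118.6 and 112.6 CPM against 918.2, 940.9 and 980.4 CPM. Among the members that passed the test in this comparison it had the largest difference, 8.98-fold, with a log2 fold change of 3.17 ± 0.202 (adjusted p = 4.6e-09). The groups did not overlap for any of these genes. Relative RNA levels of sorted populations are compared here, and a smaller share of expressing cells and less RNA per cell cannot be told apart.

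Of the 6 tested members, 5 were called higher in IL-3 mature cells, the fifth being Cxcl2. Over all 10861 genes tested, 24.1% were called higher and 22.1% lower in this comparison. The median log2 fold change of the 6 members, Ccl2 included, was 2.75, beside 0.065 for all tested genes.

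In the TSLP culture the same chromosome 11 ligands rose with maturation by a smaller amount. Ccl6 was at 5882.2, 6015 and 7488.2 CPM in TSLP immature and at 19181.5, 11697.4 and 12260.2 CPM in TSLP mature libraries. TSLP mature 1 gave the highest value, and the groups did not overlap with or without it. The log2 fold change was 1.15 ± 0.222 (adjusted p = 0.0012), and 0.8 ± 0.161 without TSLP mature 1 (adjusted p = 0.00131).

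Ccl9 was at 2173.9, 2044.2 and 3160.2 CPM in TSLP immature and at 7160.8, 4407.7 and 6114.1 CPM in TSLP mature libraries (log2 fold change 1.26 ± 0.232, adjusted p = 0.000831). Ccl3 was at 1419.8, 1671.5 and 1903.9 CPM against 5003.5, 3185.5 and 3329.5 CPM (1.21 ± 0.224, adjusted p = 0.000924). Ccl4 was at 309.7, 394.2 and 426.6 CPM against 1209.5, 996.1 and 1183.1 CPM (1.58 ± 0.189, adjusted p = 1.41e-05). Again no mature library fell among the immature ones. Without TSLP mature 1 the log2 fold change was 1.01 ± 0.202 for Ccl9, 0.88 ± 0.184 for Ccl3 and 1.44 ± 0.178 for Ccl4, and all 3 passed the test. These were 4 of the 6 tested members, where 12.9% of all tested genes were called higher and 12.2% lower. Ccl2, which entered the test only through its TSLP mature libraries, is not counted here. The median log2 fold change of the 6 tested members, Ccl2 included, was 1.23, beside 0.032 for all tested genes.

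The maturation effect was tested for a difference between the cultures with an interaction term, the TSLP effect minus the IL-3 effect. It was smaller in TSLP cultures for Ccl4 (−1.58 ± 0.265 on the log2 scale, adjusted p = 0.003), Ccl6 (−1.58 ± 0.311, adjusted p = 0.00871) and Ccl9 (−1.5 ± 0.325, adjusted p = 0.0143). Without TSLP mature 1 these were −1.68, −1.89 and −1.71. For Ccl3 the difference of −1.12 ± 0.314 did not pass (adjusted p = 0.0555), and it did without TSLP mature 1 (−1.4 ± 0.253, adjusted p = 0.00322). With Cxcl2, 4 of the 6 tested members were called lower in the interaction, where 2.15% of all tested genes were called lower and 2.04% higher.

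**Figure D2:**
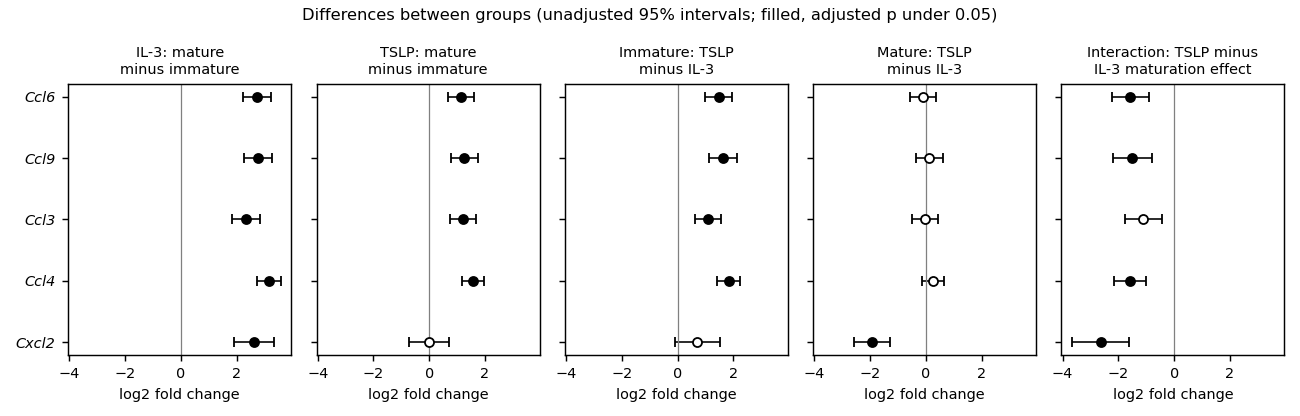
Log2 fold changes of 5 tested ligand genes (horizontal axis) in the 4 comparisons between groups and in the interaction, with unadjusted 95% intervals; filled points have an adjusted p under 0.05. Ccl6, Ccl9, Ccl3 and Ccl4 lie at 2.32 to 3.17 for maturation with IL-3 and at 1.15 to 1.58 with TSLP, while Cxcl2 lies at 2.63 and −0.01; Ccl2 is not drawn, since its counts were near 0 in several libraries.

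Between the cytokines, these ligand genes differed in immature cells, and in mature cells no difference passed the test. The test of whether the cytokine effect differed between the stages is the same interaction as above. TSLP immature cells had higher Ccl4 (log2 fold change 1.84 ± 0.193, adjusted p = 1.86e-05), Ccl9 (1.64 ± 0.234, adjusted p = 0.000351), Ccl6 (1.47 ± 0.223, adjusted p = 0.000587) and Ccl3 (1.1 ± 0.224, adjusted p = 0.00489) than IL-3 immature cells. For each gene the lowest TSLP immature library lay above the highest IL-3 immature library. These were 4 of the 6 tested members, in a comparison where 7.38% of all tested genes were called higher and 5.9% lower. The median of the 6 tested members, Ccl2 included, was 1.55, beside 0.04 for all tested genes. The immature groups also differed in basophil markers, of which 2 of 11 were called higher with TSLP and 3 lower. Itga2, the gene of the sort marker CD49b, was higher (1.67 ± 0.273, adjusted p = 0.000981), as was Cd9 (0.76 ± 0.21, adjusted p = 0.0261). Both were also higher in mature than immature cells of each culture. Fcer1a did not pass (adjusted p = 0.517). Whether a difference in stage between the immature groups bears on the ligands was not tested.

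Between the mature groups, Ccl3 differed by −0.02 ± 0.221 on the log2 scale (unadjusted 95% interval −0.49 to 0.45, adjusted p = 0.953) and Ccl9 by 0.13 ± 0.228 (−0.35 to 0.62, adjusted p = 0.703). Ccl4 differed by 0.26 ± 0.184 (−0.14 to 0.65, adjusted p = 0.338), although its 3 TSLP mature libraries all lay above the IL-3 mature ones. Ccl6 differed by −0.11 ± 0.219 (−0.58 to 0.35, adjusted p = 0.742) and, without TSLP mature 1, by −0.46 ± 0.165 (adjusted p = 0.0482). Without that library the 2 TSLP mature values of Ccl6 and Ccl3 lay below all 3 IL-3 mature values. Over all tested genes 12.4% were called higher and 11.9% lower in TSLP mature cells. The median of the 6 tested members was 0.0561, beside 0.089 for all genes. It includes Ccl2 (2.65), which entered the test only through its TSLP mature libraries. The members apart from Ccl2 ran from −1.93 (Cxcl2) to 0.26 (Ccl4), so the sign of this median is not read as a result.

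The order of the groups was thus IL-3 mature or TSLP mature first, TSLP immature next and IL-3 immature last for each of these 4 genes. The neighbours at the top overlapped for Ccl6, Ccl9 and Ccl3, and did not for Ccl4. All lower steps were free of overlap. Statements on overlap, here and elsewhere in the text, describe single genes. The share of all tested genes without overlap is not given, so a lack of overlap is not read as a trait of the members.

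The balance between the 4 ligands was also compared within libraries, a measure that does not depend on how libraries were scaled. Ccl3 counts were 7.2, 7.45 and 7.51 times those of Ccl4 in the IL-3 immature libraries, and 4.85, 3.74 and 3.8 times in IL-3 mature libraries. The ratio was 4.58, 4.24 and 4.46 in TSLP immature and 4.14, 3.2 and 2.81 in TSLP mature libraries. All IL-3 immature libraries lay above all others. Over 6 immature and 6 mature libraries the mean ratio was 5.91 ± 1.63 against 3.76 ± 0.713 (SD, exact permutation test, two-sided, p = 0.013, adjusted p = 0.0576 over 8 tests), which did not pass the correction.

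The ratio of Ccl6 to Ccl4 was 20.3 to 25.9 in the IL-3 immature group, and the TSLP mature group had the lowest mean, with values of 10.4 to 15.9. Its mean over immature and mature libraries was 19.9 ± 3.62 and 14.6 ± 3.2 (exact permutation test, two-sided, n = 6 each, p = 0.0216, adjusted p = 0.0576). Ccl6 to Ccl9 was 2.94 ± 0.203 in the 6 IL-3 libraries and 2.56 ± 0.327 in the 6 TSLP libraries (exact permutation test, two-sided, p = 0.0216, adjusted p = 0.0576). Between stages the same ratio was 2.81 ± 0.282 in immature and 2.68 ± 0.381 in mature libraries (exact permutation test, two-sided, p = 0.511). None of the 8 ratio tests, on 4 ratios by stage and by cytokine, passed after adjustment, and the smallest unadjusted p was that of Ccl3 to Ccl4 by stage.

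**Figure D3:**
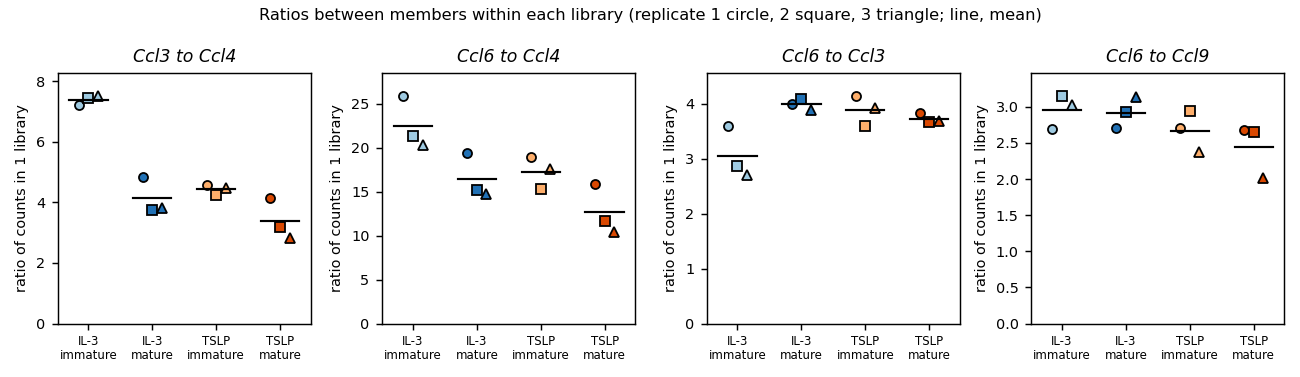
Ratio of counts of 2 ligand genes in each library (vertical axes from 0), by group, with symbols for replicates 1 to 3 and a line at the mean. Ccl3 to Ccl4 is 7.2 to 7.51 in IL-3 immature libraries and 2.81 to 4.85 in all others, and Ccl6 to Ccl9 stays between 2.01 and 3.15.

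Cxcl2, the neutrophil attractant, had another pattern: it was high in 1 of the 4 groups. It was counted 78, 69 and 110 times in IL-3 mature libraries (27.78, 25.13 and 49.61 CPM) and 11, 25 and 11 times in IL-3 immature libraries (5.336, 7.142 and 3.642 CPM). In TSLP immature libraries it was at 6.916, 10.55 and 9.533 CPM and in TSLP mature libraries at 11.33, 5.958 and 9.231 CPM. All 3 IL-3 mature libraries lay above the other 9, and the remaining groups overlapped with their neighbours in the order.

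Cxcl2 rose with maturation in IL-3 cultures (log2 fold change 2.63 ± 0.341, adjusted p = 1.09e-05). In TSLP cultures the difference was −0.01 ± 0.344 (unadjusted 95% interval −0.74 to 0.72, adjusted p = 0.986). The interaction was −2.64 ± 0.487 (adjusted p = 0.00597). TSLP mature cells had less Cxcl2 than IL-3 mature cells (−1.93 ± 0.311, adjusted p = 0.000781), a 3.82-fold difference, and without TSLP mature 1 the difference was −2.24 ± 0.339 (adjusted p = 0.000256). Between the immature groups it was 0.71 ± 0.376 (adjusted p = 0.227).

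Ccl2, the monocyte attractant, was measured at low counts. It was counted 49, 14 and 17 times in TSLP mature libraries, 4, 2 and 3 times in IL-3 mature, 3, 5 and 1 times in TSLP immature and 0, 1 and 0 times in IL-3 immature libraries. The lowest TSLP mature library (3.972 CPM) lay above the highest of the other groups (1.954 CPM), and TSLP mature 1 stood at 13.22 CPM. Ccl2 reached the count filter only through the 3 TSLP mature libraries, where it was high, so its calls against that group are given as values and not as support for a pattern.

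The log2 fold change of Ccl2 was 2.65 ± 0.609 for TSLP against IL-3 in mature cells (adjusted p = 0.00615) and 2.82 ± 0.605 for maturation in TSLP cultures (adjusted p = 0.00279). Without TSLP mature 1 these were 1.86 ± 0.584 (adjusted p = 0.0258) and 2.02 ± 0.582 (adjusted p = 0.0144). As a ratio of counts over library sizes, TSLP mature was 6.59 times IL-3 mature (95% exact binomial interval 3.3 to 14.9, counting error only), and 3.95 times without TSLP mature 1 (1.84 to 9.43). In IL-3 cultures the mature to immature ratio rested on 9 counts against 1 (9.94, interval 1.38 to 436) and did not pass the test (adjusted p = 0.058), and it did without TSLP mature 1 (adjusted p = 0.0308). Leaving out TSLP immature 2 moved the maturation effect in TSLP cultures to 3.43 ± 0.763 (adjusted p = 0.00638).

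Ccl7, Ccl22 and Cxcl10 were near the limit of detection. Ccl7, which lies close to Ccl2, had 13 counts in the 12 libraries, of which 9 were in TSLP mature 1. Without that library the other 2 TSLP mature libraries held 1 count and the TSLP immature libraries 2.

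Ccl22 was counted 4, 2 and 2 times in IL-3 mature and 10, 3 and 0 times in TSLP mature libraries, and had 0 counts in all 6 immature libraries, which allows up to 0.35 CPM in IL-3 immature and 0.34 CPM in TSLP immature cells (3 counts over the group). Against that floor the observed level was 2.95-fold higher in IL-3 mature than IL-3 immature cells and 3.65-fold higher in TSLP mature than TSLP immature cells. The counting error of the mature counts is not part of these ratios. In TSLP mature cells 10 of the 13 counts came from replicate 1, and the remaining 3 equal the floor. All 3 IL-3 mature libraries held counts of Ccl22.

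Cxcl10 was counted 5, 4 and 1 times in IL-3 mature, 0, 0 and 4 times in IL-3 immature, 1, 0 and 1 times in TSLP immature and 4, 0 and 0 times in TSLP mature libraries. Each group overlapped with the next in the order of means, while the lowest IL-3 mature library (0.451 CPM) lay above the highest TSLP immature one (0.3405 CPM). The ratio of IL-3 mature to IL-3 immature was 2.76 with an interval of 0.796 to 12.1, which includes equal levels. The ratio of TSLP mature to IL-3 mature was 0.297 (0.0679 to 1.03), on 4 counts against 10. All 4 were in TSLP mature 1. Without it the observed IL-3 mature level was 2.91-fold above a floor of 3 counts over the group, the counting error of the 10 counts not included.

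**Figure D4:**
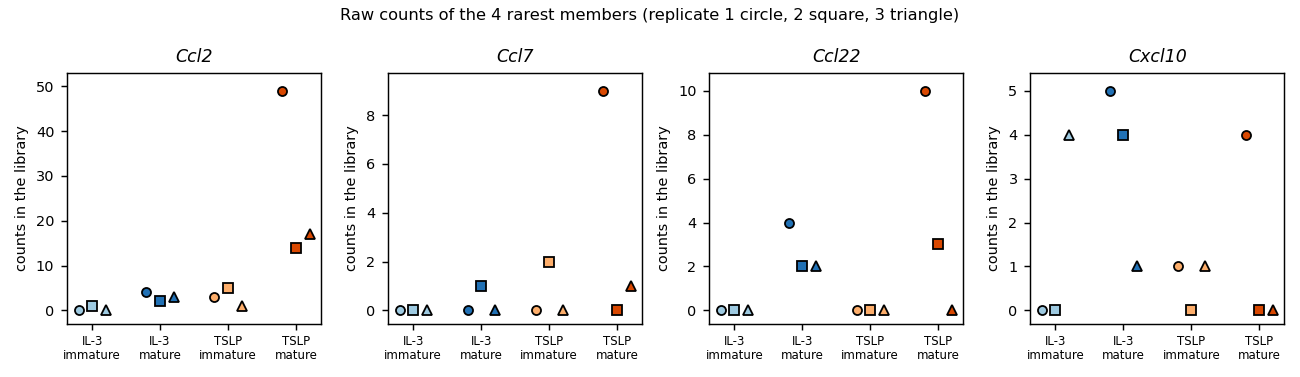
Raw counts of Ccl2, Ccl7, Ccl22 and Cxcl10 in each library (vertical axis, each gene on its own scale), by group, with symbols for replicates 1 to 3. TSLP mature 1 holds 49 counts of Ccl2, 9 of Ccl7 and 10 of Ccl22, and all 6 immature libraries hold 0 counts of Ccl22.

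Other myeloid cells also make these ligands, so the markers of other cell types were set beside them. The summed level of 13 monocyte and macrophage markers ran from 157.9 to 306.6 CPM over the IL-3 immature and from 239.9 to 297.2 CPM over the TSLP immature libraries, and from 481.7 to 831.7 CPM over the IL-3 mature and from 640.6 to 1605 CPM over the TSLP mature libraries. Of 11 tested, 6 were higher in mature IL-3 cells and 10 in mature TSLP cells, and without TSLP mature 1 these counts were 7 and 8. With all libraries, 24.1% and 12.9% of all tested genes were called higher in these comparisons. The highest TSLP mature value was that of replicate 1, with 690 and 640.6 CPM in the others. Their part in the rise of the ligands with maturation, and in Ccl2, was not tested, and none of the 13 was at 0 in every library.

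The 13 dendritic cell markers summed to 38.07 to 82.47 CPM (IL-3 immature), 106.9 to 200.9 CPM (IL-3 mature), 120.3 to 128.4 CPM (TSLP immature) and 370.8 to 1224.1 CPM (TSLP mature), again with TSLP mature 1 the highest. Clec9a, a marker of cross-presenting dendritic cells, was at 0 in every library. The 10 neutrophil markers stood at 845.6 CPM in TSLP mature 1 and at 62.7 and 55.08 CPM in TSLP mature 2 and 3, against 110.7 to 166.3 in TSLP immature, 315.8 to 445.2 in IL-3 mature and 165.2 to 195.4 CPM in IL-3 immature libraries.

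The 8 B cell markers summed to 175.4 CPM in TSLP mature 1 and to 2.137 to 41.88 CPM in all other libraries. The 6 eosinophil markers reached 74.73 CPM in TSLP mature 1 and 9.377 to 41.85 CPM elsewhere. The 7 mast cell markers stayed at or below 8.905 CPM, with Tpsab1 and Mrgprb2 at 0 in every library. The part of the dendritic cell, neutrophil, B cell, eosinophil and mast cell markers in the ligand values was not tested.

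Receptors of the ligands were measured in the same cells. Of 10 receptor genes, 5 were tested. In IL-3 cultures 4 of the 5 rose with maturation, with Ccr3 (log2 fold change 3.54 ± 0.344), Cxcr2 (3.49 ± 0.173) and Ccr2 (2.2 ± 0.163) at the top. In TSLP cultures 3 rose: Ccr3 (1.76 ± 0.314), Cxcr2 (1.47 ± 0.159) and Ccr1 (0.75 ± 0.172). Over all tested genes, 24.1% were called higher in IL-3 maturation and 12.9% in TSLP maturation.

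Cxcr2, the receptor of CXCL2, had a mean of 957.1 CPM in IL-3 mature and 644.4 CPM in TSLP mature cells. It was lower in TSLP mature cells (−0.57 ± 0.156, adjusted p = 0.0154), as were Ccr2 (−1.52 ± 0.159, adjusted p = 2.62e-05) and Ccr3 (−0.85 ± 0.272, adjusted p = 0.0338). Ccr2, the receptor of CCL2, had 340.3 CPM in IL-3 mature and 118.4 CPM in TSLP mature cells. Ccr1, the receptor of CCL3, CCL6 and CCL9, had 458.4 and 532.7 CPM in these groups, and the difference did not pass (0.22 ± 0.171, adjusted p = 0.383). The genes of CXCR3 and CCR4, the receptors of CXCL10 and CCL22, held 7 and 3 counts over all libraries.

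Among 28 other chemokine ligand genes in the table, 8 had 0 counts in every library, 18 had 1 to 100 counts and 2 had more than 100, Pf4 with 103 and Ppbp with 310. All 28 together held 784 counts, against 600121 for the 9 members. Pf4 and Ppbp, ligands of platelets, were the only ones tested, and neither passed in any comparison by edgeR or by DESeq2, with 0 at an unadjusted p under 0.05. Ccl5, the gene next to Ccl9 on chromosome 11, had 6 counts.

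Genes of other lists were measured beside the ligands, and, apart from Vegfa, Ifit1, Ifit3 and Irf1, those named had the largest differences among called genes that averaged 10 CPM or more. Of 10 tested cytokine genes of activated basophils, 9 were higher in mature IL-3 cells and 5 in mature TSLP cells, and 6 were higher in TSLP immature than IL-3 immature cells. Without TSLP mature 1 these counts were 9, 4 and 6. With all libraries, 24.1%, 12.9% and 7.38% of all tested genes were called higher in the same comparisons, and 2.15% lower in the interaction. Between the immature groups, Lif differed by 6.61 ± 0.323 on the log2 scale, Il6 by 2.13 ± 0.228 and Tnf by 1.91 ± 0.297, and Vegfa, which averaged 6.094 CPM, by 2.54 ± 0.428. In the interaction 4 were lower, and 6 without TSLP mature 1, led by Lif (−4.09 ± 0.413), Osm (−1.75 ± 0.275) and Csf1 (−1.6 ± 0.252). With maturation in IL-3 cultures Lif (4.7 ± 0.342), Csf1 (3.32 ± 0.193) and Osm (3.05 ± 0.209) led the list.

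All 8 STAT5 target genes were higher in mature IL-3 cells, led by Socs3 (5.54 ± 0.212) and Socs1 (3.56 ± 0.256). Osm is in this list and in the cytokine list above, so its calls are counted in both. In TSLP immature cells 7 were higher than in IL-3 immature cells, led by Cish (3.41 ± 0.24), Pim2 (2.67 ± 0.201) and Socs3 (2.54 ± 0.211). Of these 8 genes, 7 were lower in the interaction, where 2.15% of all tested genes were called lower. The shares of all tested genes called higher were 24.1% in IL-3 maturation, 12.9% in TSLP maturation and 7.38% between the immature groups. Of 13 tested NF-kB feedback genes, 8 were higher in mature IL-3 cells, led by Zc3h12a (1.82 ± 0.349), 4 in mature TSLP cells, led by Nfkbie (0.76 ± 0.166), and 5 in TSLP immature cells, also led by Nfkbie (1.42 ± 0.179). None of them passed in the interaction by edgeR or DESeq2, with 4 at an unadjusted p under 0.05. Of 12 tested interferon-response genes, 7 were higher in mature IL-3 cells. In TSLP mature cells 7 were lower than in IL-3 mature cells, a comparison in which 11.9% of all tested genes were called lower. Among the 7 were Ifi27l2a (−4.22 ± 0.403), Rsad2 (−2.68 ± 0.42) and Isg15 (−1.49 ± 0.332), and below 10 CPM also Ifit3 (−3.22 ± 0.477) and Ifit1 (−2.33 ± 0.397). Irf1 was higher in TSLP mature cells (0.87 ± 0.217, adjusted p = 0.00988).

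The levels of Ccl6, Ccl9, Ccl3 and Ccl4 ran closely together over the 12 libraries, with Pearson r of 0.98 to 0.99 in log2 CPM for each pair. Cxcl2 had r of 0.63 to 0.7 with them, and 0.2 with Ccl2. These values describe libraries that share 4 groups and differ in depth, and they carry no test.

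Among 7545 other tested genes that averaged 10 CPM or more, the nearest in pattern to Ccl4 were Osm (r = 0.995), Sytl3 (0.993) and Adam8 (0.992). For Ccl6 they were Nfil3 (0.994), H2-L (0.992) and Lgals3 (0.992), for Ccl9 Cfp (0.992), Lilrb4a (0.99) and Capg (0.989), and for Ccl3 Lgals3 (0.989), Tnfaip8 (0.989) and H2-D1 (0.988). Cxcl2 was nearest to Parp9 (0.934), Tspan17 (0.931) and Ccr2 (0.928). Ccl2 was nearest to Mgl2 (0.956), Usf1 (0.948) and Cd74 (0.944), of which Cd74 is also among the dendritic cell markers above.

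The genes around the chromosome 11 stretch did not all follow the ligands. Between Taf15 and Wfdc18 the annotation holds 17 genes, of which 11 were in the table and 7 were tested. Taf15, on the side of Ccl9, was lower in mature cells of both cultures (−0.68 ± 0.207, adjusted p = 0.0138, and −0.79 ± 0.211, adjusted p = 0.0114). E230016K23Rik, whose gene spans Ccl6 on the opposite strand, had 2.621 to 5.631 CPM in the group means, and its maturation effect in IL-3 cultures did not pass (1.03 ± 0.446, adjusted p = 0.0688). Whether strand was used in counting is not given in the sources used here. No stretch of 50 bases of the Ccl6 transcript occurred in a transcript of another gene on either strand.

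Wfdc17, on the side of Ccl4, was higher in IL-3 mature than IL-3 immature cells (2.52 ± 0.58, adjusted p = 0.00208), at 9.372 ± 1.93 against 1.563 ± 0.959 CPM. In TSLP cultures its difference did not pass (1 ± 0.607, adjusted p = 0.25).

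**Figure D5:**
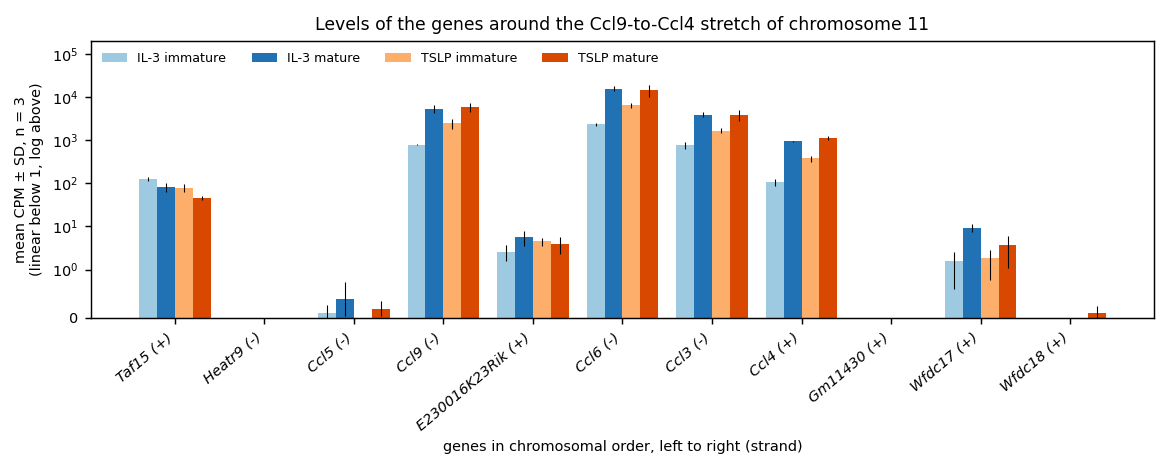
Mean level (CPM, vertical axis, linear below 1 and logarithmic above; error bars, SD of 3 libraries) of the 11 listed genes from Taf15 to Wfdc18 in chromosomal order, with strand in brackets. Ccl9, Ccl6, Ccl3 and Ccl4 reach group means of 105.2 to 15554.8 CPM, while Ccl5, Heatr9, Gm11430 and Wfdc18 in the same stretch stay below 1 CPM in every group.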

How the data were processed

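Polyadenylated RNA of 12 sorted BMBA samples was sequenced on an Ion Proton instrument after whole-transcriptome amplification. Per the methods of the study, reads were trimmed with Cutadapt, aligned with Bowtie2 to GRCm38 reference RNA and counted per gene. The labels also name GRCm39 and mm10, and the count table carries no coordinates. The authors deposited raw counts per gene symbol. How strand and multiply aligned reads were treated is not given in the sources used here. An unnamed row equal to each column total (50% of each column sum) was left out, and 0 columns were unmapped. For TSLP, one label field has a larger unit than the treatment protocol, whose dose is used.

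Counts were tested with edgeR 4.0.16 in R 4.3.3 (quasi-likelihood F test, filterByExpr with minimum count 10 and minimum total 15, TMM scaling, 4 group means over 12 libraries, no block). Of the table, 10861 genes were tested, with Benjamini-Hochberg adjustment and a threshold of 0.05. CPM are counts over TMM-scaled library sizes. A floor is 3 counts over a group. Intervals of count ratios and floors cover counting error only. Intervals of log2 fold changes come from the edgeR fit and include the spread between libraries. DESeq2 1.42.0, other scalings and filters, a replicate block and each library left out were tried. The test was also run on simulated counts with the same dispersion for every gene and 200 genes changed in the TSLP mature group. That simulation held no outlying library, so it does not bear on TSLP mature 1.

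Members and lists were chosen with earlier results of these data known. The rule named all members, up to 3 called genes of a list per comparison with at least 10 CPM and the largest log2 fold change (a selection is given), and the 3 genes nearest to a tested member by Pearson r of log2 CPM (prior count 2). Pf4, Ppbp, Ccl5, Vegfa, Ifit1, Ifit3, Irf1, single markers and chromosome 11 neighbours were named after their values were seen, and list counts without TSLP mature 1 were added then. Of the lists, 1 gene is not reported here. Same-numbered samples deviated together in all 3 pairs of TSLP mature with TSLP immature (r = 0.24, 0.15 and 0.57). They also did in all 3 pairs of TSLP mature with IL-3 mature (0.5, 0.11 and 0.2) and of TSLP immature with IL-3 immature (0.13, 0.08 and 0.25). The pairs of IL-3 mature with IL-3 immature did not all do so (0.08, −0.13 and 0.09). In the same order of comparisons, pairs of unlike number ran from −0.44 to 0.25, −0.44 to 0.36, −0.22 to 0.08 and −0.19 to 0.16. These ranges overlap the same-number values in part, and whether the same number meant a shared culture was not tested.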

Additional observations from a re-analysis of the deposited data

Results flagged for a closer look

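The effect of maturation differed between the TSLP and IL-3 cultures by the interaction test for 4 members. The difference, TSLP effect minus IL-3 effect on the log2 scale, was −1.58 for Ccl4, −1.58 for Ccl6, −1.5 for Ccl9 and −2.64 for Cxcl2. For Ccl4, Ccl6 and Ccl9 both effects were increases and the TSLP immature level was the higher of the 2 immature levels. For Cxcl2 only the IL-3 culture had an increase that passed the test. Each of these 4 calls held in all 19 alternative settings in which it was computed, with ranges of −1.71 to −1.49 for Ccl4, −1.89 to −1.46 for Ccl6, −1.71 to −1.32 for Ccl9 and −2.97 to −2.31 for Cxcl2. With 3 libraries in a group, no group was tested for single outlying values. TSLP mature 1 was examined apart, and each library was left out in turn.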

How the results depend on the processing

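Of 587 member fold changes over all alternatives, 567 kept their direction and side of the threshold, 6 newly passed, 14 changed sign and 0 lost a call. With the filter of 10 CPM in 3 libraries, 1 member differed between the mature groups in place of 2, since Ccl2 was no longer tested. Without TSLP mature 1 the members called were 6 in IL-3 maturation, 3 between the mature groups and 5 in the interaction. The 6 and the 3 include Ccl2. The sign changes all concerned values that did not pass. With each library left out in turn, Cxcl2 in TSLP maturation ran from −0.33 to 0.15, Ccl3 between the mature groups from −0.34 to 0.08 (0.01 with no filter), Ccl9 between the mature groups from −0.11 to 0.31 and the Ccl2 interaction from −2.06 to 0.53. The cause was not tested. The replicate block changed no member call, with 5, 5, 2, 4 and 4 members called. The 5 in TSLP maturation and the 2 between the mature groups include Ccl2, which entered the test only through its TSLP mature libraries. DESeq2 called Ccl3 in the interaction (−1.08, adjusted p = 0.0197), as did the fit with no filter (−1.06, adjusted p = 0.0313). Depth limits Ccl2, Ccl7, Ccl22 and Cxcl10, and the limit of 3 cultures per group applies to every comparison.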

Other observations

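Rn45s, the ribosomal RNA precursor, took 7.43% to 12.5% of the counts in the IL-3 libraries, 15.8% to 20.2% in 5 of the 6 TSLP libraries and 8.68% in TSLP mature 1. With Rn45s left out of the table, the members took 0.478% to 0.533% of the remaining counts in IL-3 immature, 1.15% to 1.42% in TSLP immature, 2.54% to 3.19% in IL-3 mature and 2.31% to 3.71% in TSLP mature libraries. Every member call stayed the same with Rn45s left out.

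Cxcl3, whose transcript shares stretches with Cxcl2, had 28 counts in IL-3 mature, 22 in TSLP mature, 5 in TSLP immature and 1 in IL-3 immature libraries, and was not tested. Ccl24 had 14 of its 20 counts in TSLP mature libraries. Receptor counts without TSLP mature 1 were 4 higher in IL-3 maturation, 3 higher in TSLP maturation and 3 lower between the mature groups. Of the 10 tested neutrophil markers, 8 were called higher in TSLP mature than TSLP immature cells with all libraries and 1 without TSLP mature 1. The share of all tested genes called higher there was 12.9% with all libraries.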
